A study of Mus musculus with 18 samples.

Results

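Expression of 37 genes of adipocyte lipid storage and lipogenesis was followed in whole descending aortas of 18 mice. The genes were given as a list of symbols, found in the deposited table of 54281 genes through their Ensembl identifiers, and all 37 were among the 15210 genes with enough counts to be tested (at least 10 counts in at least 6 mice). RNA depleted of ribosomal RNA was sequenced from 3 groups of 6 mice, namely HGPS and WT at 2 mo and WT at 24 mo. All mice were male, on the C57BL/6 background and fed chow, and each aorta was taken with its intima, media and adventitia, perfused and cleaned. The HGPS mice carry the Lmna mutation that the labels write as LMNAG609G, in the mouse's own gene, so that progerin can be made wherever Lmna is used. Whether the sequenced mice had the mutation in 1 or both copies is not given in the labels, and counts of Lmna cannot check a point mutation. The paper uses the name HGPS mouse for a knock-in with the mutation in both copies of Lmna. Its methods name mice with 1 mutant copy as the stock that was supplied. HGPS mice were 64 to 75 d old, the 2-mo WT mice 62 d except for replicate 6 at 95 d, and the 24-mo WT mice 609 to 762 d. Totals ranged from 12413229 to 30844775 counts per mouse.

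Adipocytes keep triglyceride in a lipid droplet. The fatty acids come from lipoproteins in blood or from new synthesis out of citrate, they are joined to glycerol phosphate, and lipases release them again on demand. A coat of perilipins guards the droplet, and adipocytes secrete hormones such as adiponectin and leptin. Smooth muscle, endothelium and fibroblasts make up most of the aortic wall, while adipocytes lie in the perivascular fat outside the adventitia, which in mice resembles brown fat around the thoracic aorta. In these libraries of whole tissue, more cells of a type and more RNA per cell cannot be told apart.

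Most of the 37 genes were higher in HGPS aortas and few differed between the ages of WT mice. By edgeR's quasi-likelihood test, with p-values adjusted over all genes tested, 32 of the 37 had higher levels in HGPS than 2-mo WT at an adjusted p under 0.05, 1 (Plin4) was lower and 4 (Lep, Scd2, Srebf1 and Adrb3) did not pass. Of all tested genes, 22% were higher and 21.2% lower. The standard error of a log2 fold change is given as SE. The median log2 fold change was 1.48 over the 37 genes and 0.00 over all genes tested. Between 24-mo and 2-mo WT, 1 gene was higher (Lep), 1 was lower (Elovl5) and 35 did not pass, against 6.29% of all genes higher and 5.38% lower, and the median log2 fold change was 0.15. HGPS was also compared with 24-mo WT directly, which tests whether the first 2 contrasts differ, since they share their 2-mo WT controls. There, 31 genes were higher in HGPS, 2 (Lep and Plin4) were lower and 4 (Fasn, Scd2, Srebf1 and Adrb3) did not pass, against 23.8% of all genes higher and 23.6% lower.

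**Figure D1:**
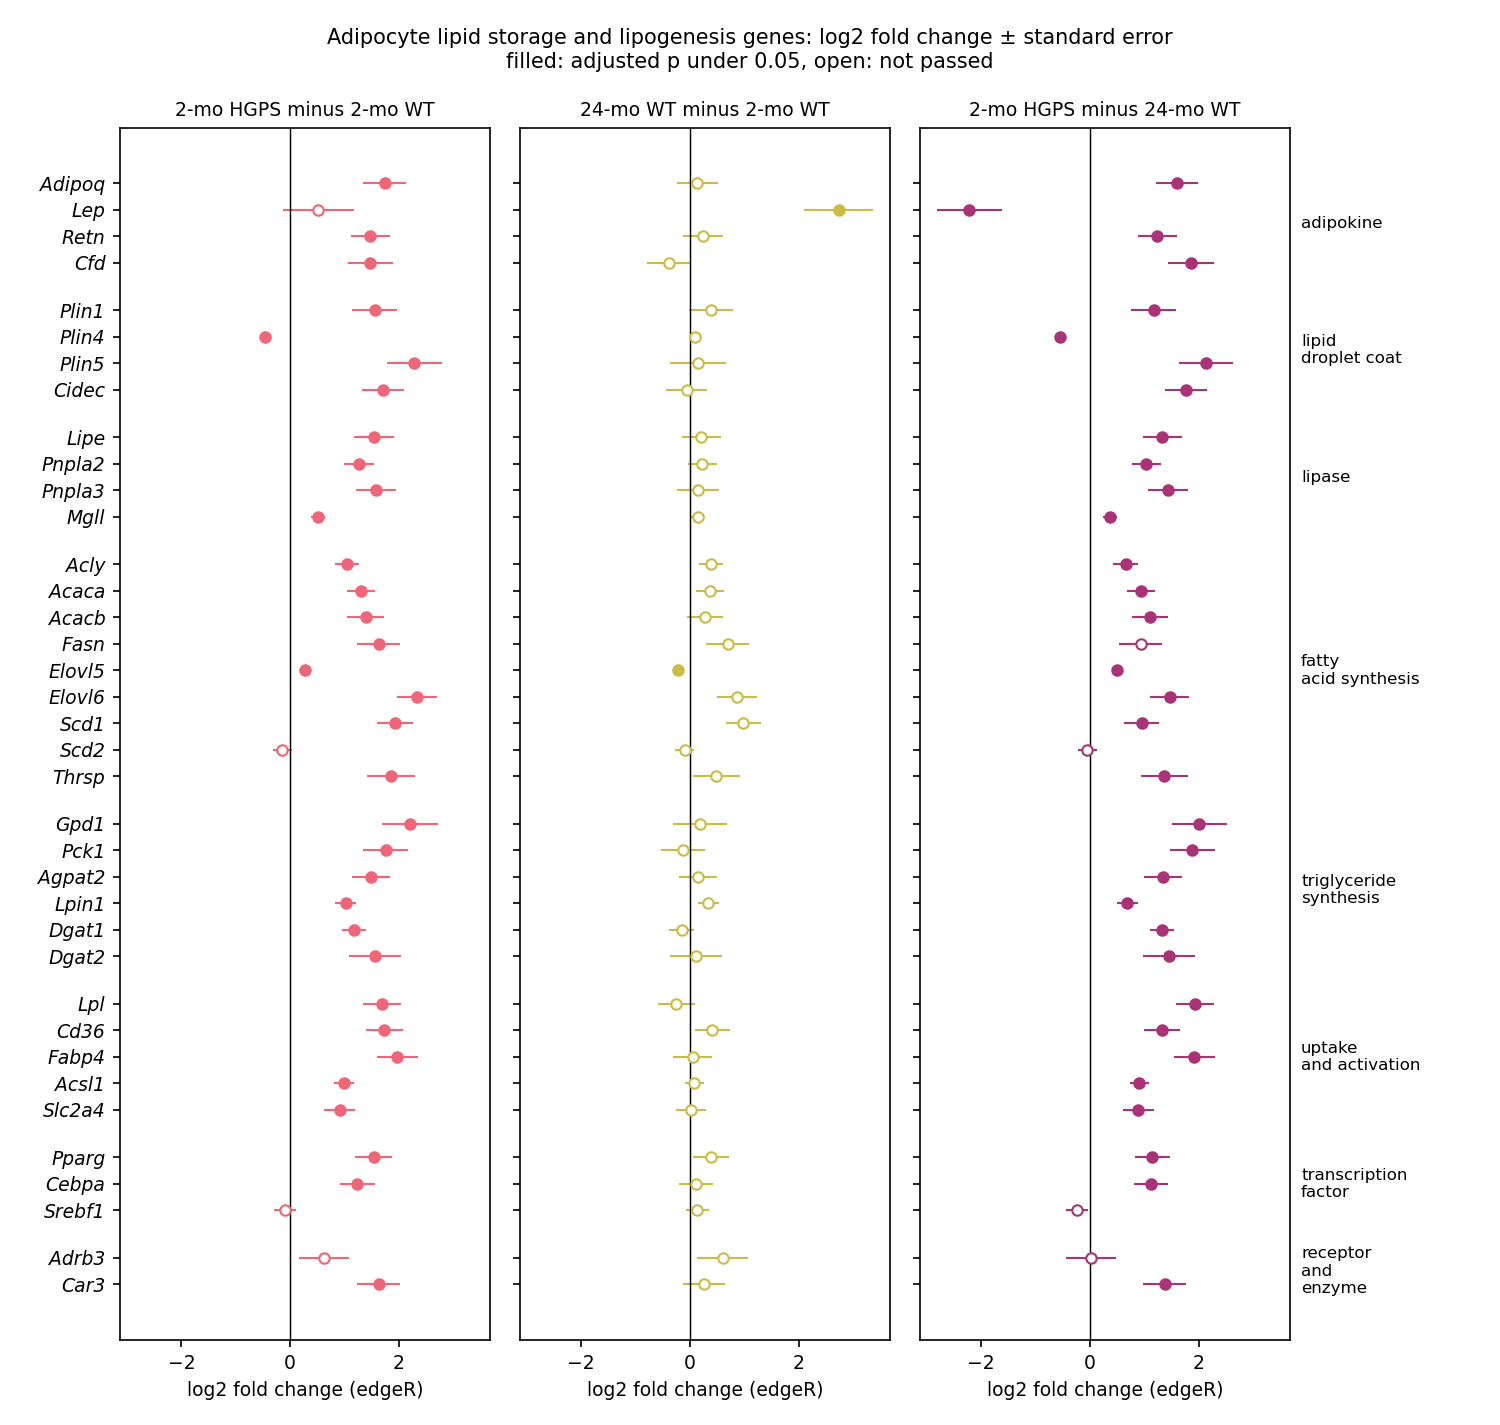
Log2 fold change (x axis, edgeR) with its standard error for each of the 37 genes (rows, grouped by role) in the 3 comparisons, with 6 mice in each group. Filled points passed an adjusted p of 0.05 and open points did not. Nearly all points of the left and right panels lie right of 0, at up to 2.34 for Elovl6 in the left panel, whereas Lep stands apart in the middle panel at 2.74.

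The study's cut-offs ask for a change of at least 1.5-fold together with an adjusted p below 0.001. They were met by 10 of the 37 genes in HGPS against 2-mo WT, while 9.5% of all tested genes met them. They were Acly, Acaca, Elovl6, Scd1, Lpin1, Dgat1, Lpl, Cd36, Fabp4 and Acsl1, and all 10 were higher. With DESeq2 the count was 25 and with limma voom 26. Between HGPS and 24-mo WT, 5 met them (Cidec, Dgat1, Lpl, Fabp4 and Acsl1), against 12.1% of all genes, and the count was 11 with DESeq2 and 17 with limma voom. Between the ages of WT mice, 0 of the 37 genes met them by edgeR, against 2.0% of all genes. There 4 had an unadjusted p under 0.05, and DESeq2 found 1 gene past the cut-offs (Lep) and limma voom 0. Mice of 1 group differed widely. The 6 HGPS mice lay wholly above the 2-mo WT mice in 4 genes (Acly, Acaca, Elovl6 and Scd1), against 11.0% of all genes. The count of 10 at these cut-offs moved with single libraries. It was 23 without HGPS replicate 4, 21 without 2-mo WT replicate 1 and 17 without 24-mo WT replicate 1, and 3 to 5 without any one of HGPS replicates 1, 2, 3 and 6 or 2-mo WT replicates 2 to 6. The count of 5 was 11 without 24-mo WT replicate 1, 8 without HGPS replicate 4, and 2 or 3 without any one of HGPS replicates 1, 2, 3 and 6 or 24-mo WT replicates 2, 3 and 5. At an adjusted p of 0.05, 33 genes passed between HGPS and 2-mo WT with each of the 18 mice left out in turn.

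The genes moved together from mouse to mouse within each group. In 2-mo WT, replicate 1 was the highest mouse for 35 of the 37 genes and replicate 4 the lowest for 28. In 24-mo WT, replicate 1 was the highest for 33 and replicate 3 the lowest for 30. In HGPS, replicate 4 was the lowest for 27 genes and replicate 5 for 8. The highest HGPS mouse differed between genes. Replicate 2 was highest for 16 genes, among them Fasn, Elovl6, Acaca, Acly and Lpl, replicate 6 for 11, among them Adipoq, Retn, Cfd, Plin1, Cidec and Lipe, replicate 3 for 9, among them Scd1, Pck1 and Pparg, and replicate 4 for Scd2.

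**Figure D2:**
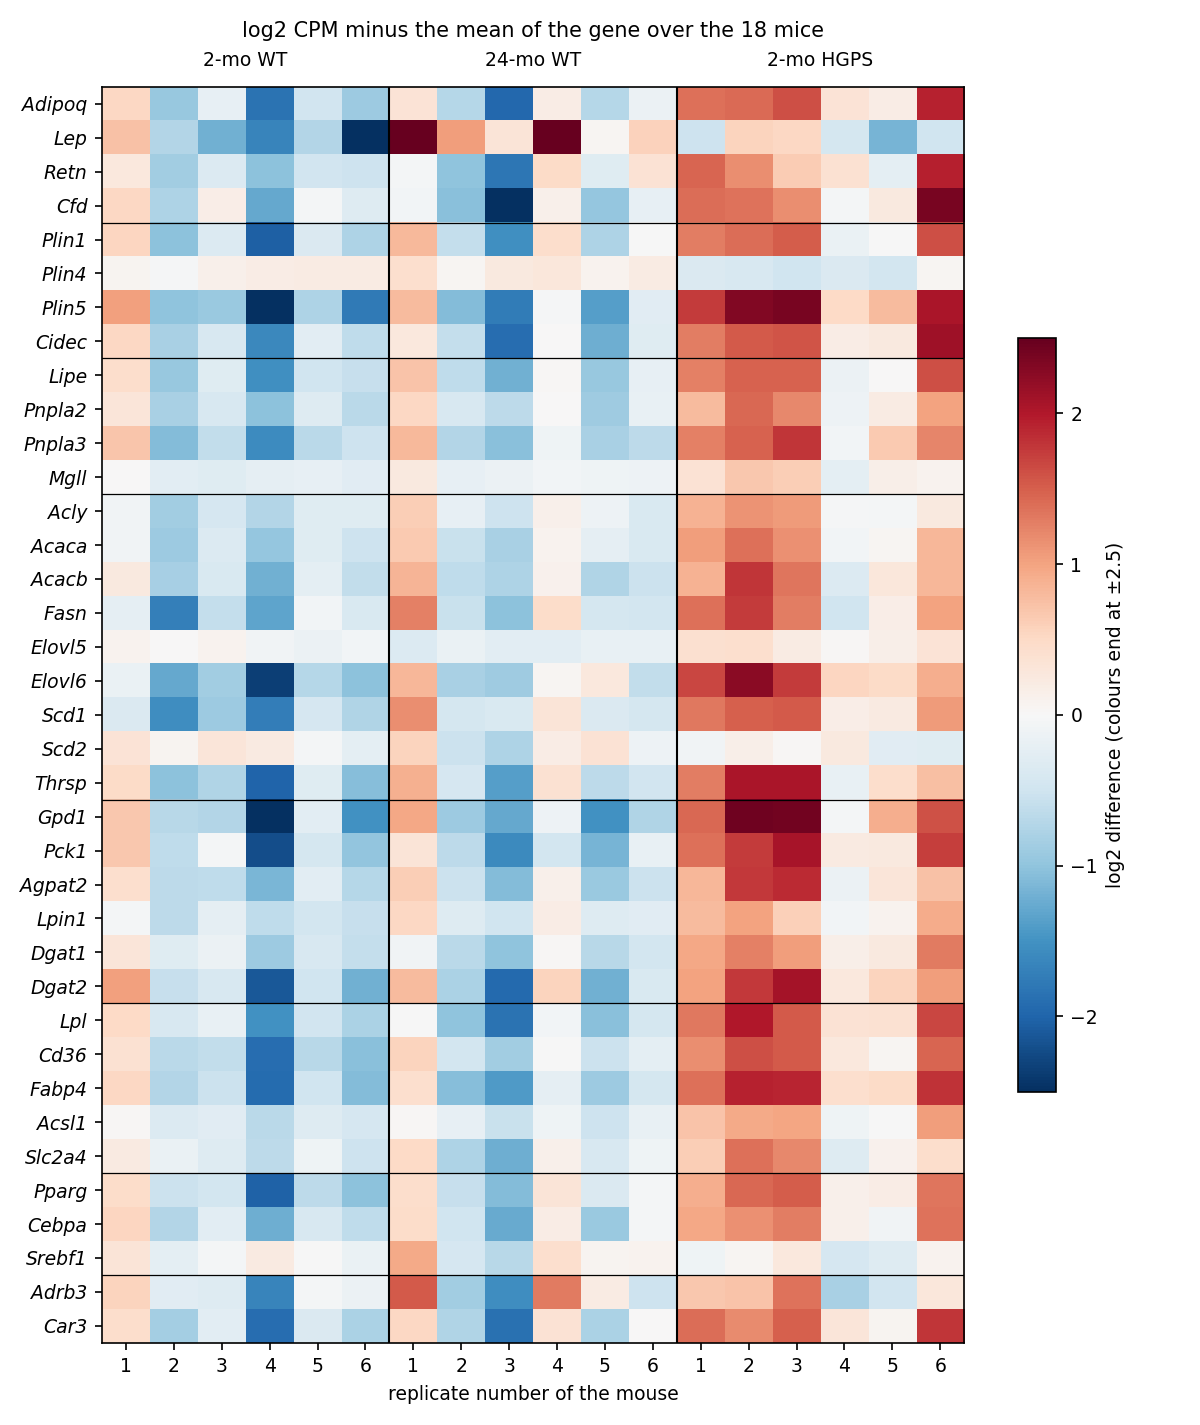
Log2 CPM of each of the 37 genes (rows, by role) in each of the 18 mice (columns, replicate numbers within group), as the difference from the gene's mean over all mice. Columns are shaded as a whole: HGPS replicates 1, 2, 3 and 6 are high, 2-mo WT replicate 4 and 24-mo WT replicate 3 are low, and Plin4, Scd2 and Srebf1 depart from the other rows.

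Markers of fat that are not among the 37 genes moved with them. Of 12 brown fat markers, 11 were tested and all 11 had higher levels in HGPS than in either WT group. Between the ages of WT, 0 of the 11 passed and all 11 log2 fold changes were negative, while 30 of the 37 genes had a positive one. The summed level of the brown fat markers was 550.7 to 2010 CPM in HGPS mice, 138.3 to 749 in 2-mo WT and 165 to 512 in 24-mo WT. Ucp1, the uncoupling protein of brown fat, had a median of 317 CPM in HGPS (102.9 to 962), 79.8 in 2-mo WT (2.27 to 249.9) and 38.6 in 24-mo WT (17.0 to 152.9). Zic1, a marker of classical brown fat, had at most 0.176 CPM in a mouse and was not tested. Of 7 general adipocyte markers outside the 37 genes, 5 passed with a higher level in HGPS against 2-mo WT, and their summed level was 58.4 to 171 CPM in HGPS, 17.3 to 88.8 in 2-mo WT and 20.0 to 95.9 in 24-mo WT. Of 8 smooth muscle markers, 6 were lower in HGPS than in 2-mo WT and 2 did not pass. Myh11, smooth muscle myosin, had a log2 fold change of -1.17 (SE 0.11, adjusted p = 2.05e-07 by edgeR). All 7 macrophage markers were higher. Of 6 fibroblast markers, 3 were lower and 3 did not pass, and of 7 endothelial markers 1 was higher and 6 did not pass. Of 4 nerve markers tested, 2 were higher and 1 was lower. Skeletal muscle, lymphoid and white fat lists had 3 markers tested each, with 1 higher in each list and 1 skeletal muscle marker lower. The shares of all tested genes that were higher and lower in this comparison are given above.

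When a score of the brown fat markers (their mean log2 CPM in each mouse) was entered in the edgeR fit, 2 of the 37 genes passed an adjusted p of 0.05 between HGPS and 2-mo WT, Elovl6 higher and Plin4 lower, and the median log2 fold change was 0.24. With a score of the 7 adipocyte markers instead, 13 genes were higher and 3 lower, and the median was 0.40. Most markers of both scores were themselves higher in HGPS, so a score also takes up part of the difference between genotypes. These fits cannot tell the marker level and the genotype apart. In the direct comparison with 24-mo WT, the brown fat score left 3 higher (Elovl5, Dgat1 and Lpl) and 3 lower (Lep, Plin4 and Adrb3). Of these, Adrb3 did not pass without the score. The summed level of the 37 genes was 7864 to 20290 CPM in HGPS, 3871 to 8476 in 2-mo WT and 4798 to 13250 in 24-mo WT. A few abundant genes weigh heavily in this sum, since Scd1 and Fasn had means of 3791 and 1847 CPM in HGPS and 1960 and 968 in 24-mo WT. Plin4, with a mean of 585 CPM in HGPS and 801 in 2-mo WT, went the other way. The part that fat outside the wall has in these levels was not tested.

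**Figure D3:**
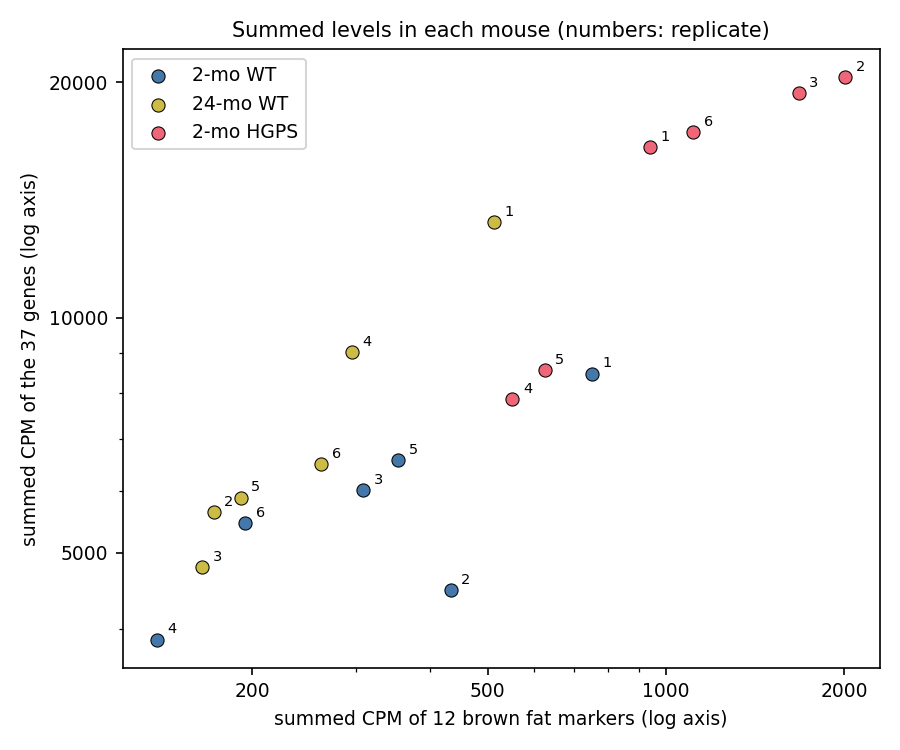
Summed CPM of the 37 genes (y axis, log) against summed CPM of 12 brown fat markers (x axis, log) in each of the 18 mice, with replicate numbers beside the points. HGPS mice lie from 550.7 to 2010 CPM of brown fat markers and 2-mo WT mice from 138.3 to 749, with both sums high in HGPS replicates 2 and 3. At a like level of brown fat markers, 24-mo WT replicates 1 and 4 had higher sums of the 37 genes than the 2-mo WT mice did. Much of these sums is Scd1 and Fasn, at 4053 and 2173 CPM of 13250 in replicate 1 and 2262 and 1242 of 9027 in replicate 4.

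Of the 4 adipokines, the proteins that adipocytes secrete, 3 were higher in HGPS than in 2-mo WT, and leptin was not. Adipoq (ENSMUSG00000022878, GRCm38 chr16:23146536-23158028, plus strand) encodes adiponectin, which is made almost solely by adipocytes. Its level was 88.9 to 300.1 CPM in HGPS (median 208), 21.9 to 112 in 2-mo WT (median 49.2) and 20.2 to 99.4 in 24-mo WT (median 59.8). The HGPS mice overlapped the WT mice only through replicates 4 and 5, at 99.7 and 88.9 CPM. The log2 fold change against 2-mo WT was 1.74 (SE 0.39, adjusted p = 0.00141), and against 24-mo WT 1.60 (SE 0.39, adjusted p = 0.00213). Between the ages of WT it was 0.13 (SE 0.38, adjusted p = 0.872). Retn, which encodes resistin, and Cfd, which encodes adipsin (complement factor D), each had a log2 fold change of 1.48 between HGPS and 2-mo WT. HGPS replicate 6 had 1485 CPM of Cfd, against a group median of 689.

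Leptin, the hormone that reports fat stores to the brain, had another pattern. Lep (ENSMUSG00000059201, chr6:29060220-29073877, plus strand) was at 1.83 to 18.5 CPM in 24-mo WT (median 3.16), 0.155 to 2.94 in 2-mo WT (median 0.917) and 0.794 to 2.60 in HGPS (median 1.29). The 24-mo WT level was high in replicates 1 and 4, at 18.5 and 16.5 CPM, and at most 3.66 in the other mice of the group. These values rest on few reads, 36 to 316 counts in 24-mo WT, 3 to 64 in 2-mo WT and 19 to 62 in HGPS. The log2 fold change of 24-mo over 2-mo WT was 2.74 (SE 0.64, adjusted p = 0.00727 by edgeR), a 6.66-fold difference, and it was 2.25 without 24-mo WT replicate 1 and 3.38 without 2-mo WT replicate 1, with the adjusted p under 0.05 in every fit that left out 1 mouse. With the brown fat score in the fit it was 2.88 (adjusted p = 0.000198 by edgeR). HGPS was lower than 24-mo WT by a log2 fold change of -2.22 (SE 0.60, adjusted p = 0.00541), and did not pass against 2-mo WT (0.52, SE 0.65, adjusted p = 0.554).

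**Figure D4:**
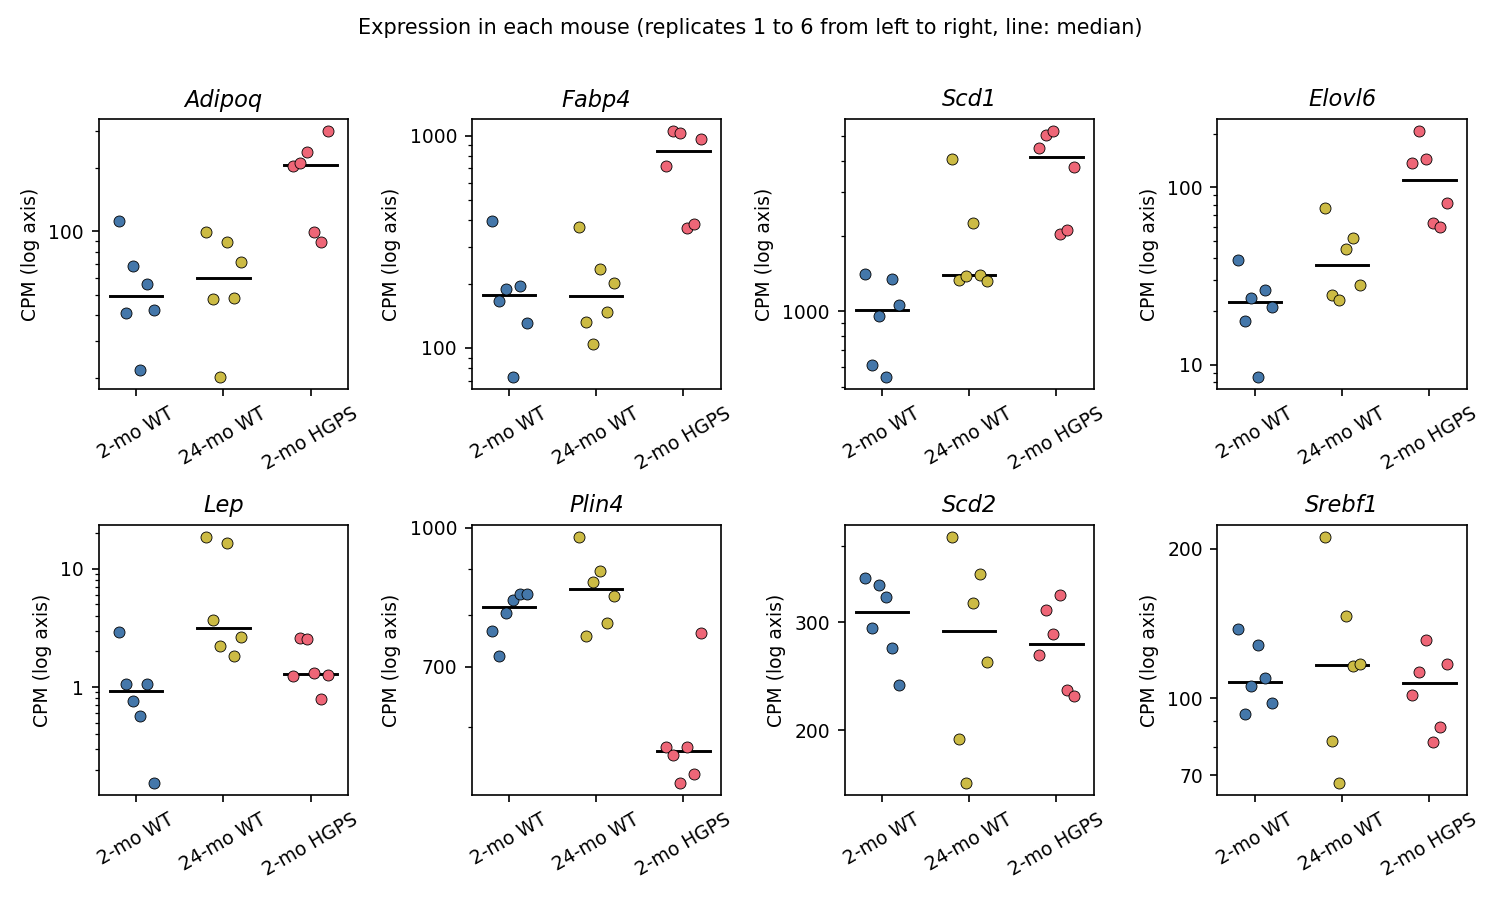
CPM of 8 genes in each mouse (points, log axes, 6 mice per group, replicates 1 to 6 from left to right, line at the median). Adipoq, Fabp4, Scd1 and Elovl6 are high in most HGPS mice, Lep is high in 24-mo WT replicates 1 and 4, Plin4 is low in 5 of 6 HGPS mice, and Scd2 and Srebf1 overlap between all groups.

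The lipid droplet proteins divided by paralog. Plin1, the perilipin of adipocyte droplets, was at 47.2 to 161 CPM in HGPS (median 134), 12.7 to 76.1 in 2-mo WT (median 36.0) and 18.3 to 92.4 in 24-mo WT (median 43.7). HGPS replicates 4 and 5, at 47.2 and 52.0 CPM, lay among the WT mice, and the log2 fold change against 2-mo WT was 1.56 (SE 0.41, adjusted p = 0.00508). Against 24-mo WT, Plin1 did not pass without HGPS replicate 3 or 6 or without 24-mo WT replicate 2 or 5 (adjusted p = 0.0501 to 0.0545). Plin5, the perilipin of tissues that burn fat, had 7.75 to 28.2 CPM in HGPS, 0.892 to 11.1 in 2-mo WT and 1.62 to 9.49 in 24-mo WT. Its log2 fold change in HGPS was 2.28 against 2-mo WT (SE 0.50, adjusted p = 0.00124) and 2.14 against 24-mo WT. Cidec, which enlarges droplets by fusing them, had 73.1 to 279 CPM in HGPS (median 171), 21.0 to 91.4 in 2-mo WT (median 44.97) and 17.2 to 77.6 in 24-mo WT (median 47.3). Its log2 fold change was 1.71 against 2-mo WT (adjusted p = 0.00142) and 1.77 against 24-mo WT (adjusted p = 0.000895).

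Plin4 was the only one of the 37 genes that fell in HGPS against 2-mo WT. It lies on chromosome 17 (GRCm38, 56100591 to 56109803, minus strand), next to Plin5 (56111601 to 56117596, minus strand), and the neighbours moved in opposite directions. Plin4 had 519 to 764 CPM in HGPS (median 564), 719.7 to 844 in 2-mo WT (median 817) and 757.5 to 977 in 24-mo WT (median 855). HGPS replicate 6, at 764 CPM, overlapped the WT mice, and the other 5 HGPS mice, at 570.1 or less, lay below all 12 WT mice. The log2 fold change was -0.45 against 2-mo WT (SE 0.09, adjusted p = 0.000382) and -0.54 against 24-mo WT (SE 0.09, adjusted p = 4.8e-05), and it was still negative and called with the brown fat score (-0.47) and with the adipocyte score (-0.54). Unlike Adipoq, whose highest 2-mo WT mouse had 5.12 times the level of the lowest, Plin4 varied by 1.17-fold in that group.

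All 4 lipases were higher in HGPS than in both WT groups. Pnpla2, adipose triglyceride lipase, which starts the breakdown of triglyceride, had a log2 fold change of 1.26 against 2-mo WT, Lipe, hormone-sensitive lipase, 1.54, and Pnpla3, adiponutrin, 1.58. Mgll, which frees the last fatty acid of a monoglyceride, changed least, from 154 ± 12.7 CPM in 2-mo WT to 220 ± 51.6 in HGPS (SD, n = 6 each), a log2 fold change of 0.51 (SE 0.12, adjusted p = 0.0024 by edgeR). Against 24-mo WT it was 0.37 (adjusted p = 0.0186 by edgeR), and without HGPS replicate 2 it did not pass (adjusted p = 0.0555), nor without HGPS replicate 3 (adjusted p = 0.0519).

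Fatty acid synthesis held the largest rise, that of Elovl6. Against 2-mo WT, 8 of its 9 genes had higher levels in HGPS. Elovl6 (ENSMUSG00000041220, chr3:129532355-129638495, plus strand) lengthens saturated fatty acids beyond palmitate. It was at 60.0 to 207 CPM in HGPS (median 110), 8.52 to 38.7 in 2-mo WT (median 22.5) and 23.3 to 76.8 in 24-mo WT (median 36.4). The HGPS and 2-mo WT mice did not overlap, a 5.05-fold difference (log2 fold change 2.34, SE 0.37, adjusted p = 6.6e-05), whereas 24-mo WT replicate 1 exceeded the 2 lowest HGPS mice. The log2 fold change against 24-mo WT was 1.47 (SE 0.36, adjusted p = 0.00224). With the brown fat score in the fit, the log2 fold change of Elovl6 for HGPS against 2-mo WT was 1.08 (adjusted p = 0.0245 by edgeR). Against 24-mo WT, the Elovl6 call was lost in 3 of the 29 alternatives, none of which left out a single mouse. Its log2 fold change there was 1.23 to 1.74 without 1 mouse and 0.11 to 1.76 in the other alternatives. Between the ages of WT it was 0.86, which did not pass in the main fit but passed in 3 of the 29 alternatives.

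Scd1, stearoyl-CoA desaturase 1, places a double bond in saturated fatty acids and, per kilobase of annotated exon, was the highest of the 37 genes in HGPS and in 24-mo WT, at means of 775 and 401 CPM per kilobase, but below Cfd in 2-mo WT, at 203 against 275. Unscaled for length, its level was 2032 to 5240 CPM in HGPS (median 4144), 547 to 1411 in 2-mo WT (median 1013) and 1324 to 4053 in 24-mo WT (median 1393). No HGPS mouse was as low as a 2-mo WT mouse (log2 fold change 1.94, SE 0.33, adjusted p = 0.000129), and 24-mo WT replicates 1 and 4, at 4053 and 2262 CPM, lay within the HGPS range. Between the ages of WT, the log2 fold change was 0.98 (SE 0.32, adjusted p = 0.0523), just short of the threshold. It passed in 10 of the 29 alternatives, among them limma voom (adjusted p = 0.0459), the fit with the adipocyte score (adjusted p = 0.00441) and the fit without 2-mo WT replicate 1 (1.12, adjusted p = 0.045), and it was 0.64 without 24-mo WT replicate 1 (adjusted p = 0.156). HGPS was higher than 24-mo WT by 0.95 (SE 0.32, adjusted p = 0.0196).

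Scd2, the paralog best known from brain, did not follow Scd1. The genes lie near each other on chromosome 19 (GRCm38), Scd2 from 44293674 to 44306864 on the plus strand and Scd1 from 44394455 to 44407879 on the minus strand. Scd2 had 228 to 332 CPM in HGPS, 237 to 355 in 2-mo WT and 164 to 413 in 24-mo WT, and its log2 fold change against 2-mo WT was -0.14 (SE 0.18, adjusted p = 0.553). Of the 31-base words in Scd1 transcripts, 8.14% also occur in transcripts of other genes, mostly Scd3 and Scd2, so a small part of the reads could have been assigned to either.

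The enzymes upstream of Elovl6 and Scd1 rose less. Acly, which cleaves citrate to acetyl-CoA, had 319 to 722 CPM in HGPS (median 499), 182 to 313 in 2-mo WT (median 257) and 229.8 to 504 in 24-mo WT (median 294), with a log2 fold change of 1.05 against 2-mo WT (SE 0.22, adjusted p = 0.000937). Against 24-mo WT, Acly did not pass without HGPS replicate 2 (adjusted p = 0.0576) or replicate 3 (adjusted p = 0.054). Acaca, which makes the malonyl-CoA used in synthesis, had 309 to 841 CPM in HGPS (median 627), 168 to 305 in 2-mo WT (median 242) and 185 to 511 in 24-mo WT (median 265), a log2 fold change of 1.31 (SE 0.26, adjusted p = 0.000499). In both genes the lowest HGPS mouse exceeded the highest 2-mo WT mouse by a small margin. Up to 33.4% of the 31-base words of Acaca transcripts occur in other genes, chiefly Gm5182, so its counts are less certain. Acacb, whose malonyl-CoA restrains fat oxidation at the mitochondrion, rose by a log2 fold change of 1.39, and Thrsp, a regulator of lipogenesis known as Spot 14, by 1.86. Thrsp had 69.07 to 326.8 CPM in HGPS (median 162.5), 19.72 to 109.6 in 2-mo WT (median 42.98) and 30.33 to 146.4 in 24-mo WT (median 57.68). Its HGPS range overlapped both WT ranges.

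Fasn, fatty acid synthase, had 645 to 3054 CPM in HGPS (median 2010), 278 to 869 in 2-mo WT (median 649) and 445 to 2173 in 24-mo WT (median 664). Its log2 fold change was 1.63 against 2-mo WT (SE 0.40, adjusted p = 0.00302), while 0.93 against 24-mo WT did not pass (SE 0.40, adjusted p = 0.059). It passed without 24-mo WT replicate 1, at a log2 fold change of 1.34 (adjusted p = 0.00587), without HGPS replicate 4 (1.11, adjusted p = 0.0207) or replicate 5 (1.06, adjusted p = 0.0405), and by limma voom (1.36, adjusted p = 0.00409). Elovl5, which lengthens polyunsaturated fatty acids, varied little from mouse to mouse, with 93.0 to 123 CPM in HGPS, 82.7 to 97.7 in 2-mo WT and 72.8 to 81.5 in 24-mo WT. It was the only one of the 37 that fell with age, by a log2 fold change of -0.22 (SE 0.07, adjusted p = 0.0417), and all 24-mo WT mice were below all 2-mo WT mice, as in 3.08% of all genes tested. That call was lost in 10 of the 18 fits that left out 1 mouse, with an adjusted p of at most 0.108. Elovl5 rose in HGPS by 0.27 against 2-mo WT (SE 0.07, adjusted p = 0.00349).

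All 6 genes of triglyceride synthesis were higher in HGPS than in either WT group, although Dgat2 did not pass against 24-mo WT without HGPS replicate 3 (adjusted p = 0.0507). Gpd1, which makes glycerol 3-phosphate from glycolysis, had 162 to 909 CPM in HGPS (median 477), 27.4 to 268 in 2-mo WT (median 103) and 58.9 to 328 in 24-mo WT (median 94.2), a log2 fold change of 2.20 against 2-mo WT (SE 0.52, adjusted p = 0.00206). Pck1, which supplies glycerol 3-phosphate from pyruvate, had 250.1 to 886 CPM in HGPS (median 632), 45.8 to 340 in 2-mo WT (median 147) and 70.4 to 265 in 24-mo WT (median 145), a log2 fold change of 1.76. Each of these ranges overlapped between HGPS and 2-mo WT.

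Dgat1 and Dgat2 add the last fatty acid to triglyceride by unrelated enzymes, and both were higher in HGPS. Dgat1 had 28.3 to 63.3 CPM in HGPS (median 51.3), 13.7 to 31.7 in 2-mo WT (median 20.0) and 12.7 to 26.2 in 24-mo WT (median 17.3). HGPS and 24-mo WT mice did not overlap, as in 10.9% of all genes with HGPS higher, with a log2 fold change of 1.33 (SE 0.23, adjusted p = 1e-04), and against 2-mo WT it was 1.18 (SE 0.23, adjusted p = 0.000393). Dgat2 was more variable, with 113 to 397 CPM in HGPS and 21.7 to 193 in 2-mo WT, and its larger log2 fold change of 1.56 had a larger standard error (0.48, adjusted p = 0.0135). Lpin1, which makes diacylglycerol, had 69.4 to 147 CPM in HGPS (median 119), 46.3 to 71.2 in 2-mo WT (median 51.3) and 51.8 to 105 in 24-mo WT (median 59.4), a log2 fold change of 1.02 (SE 0.19, adjusted p = 0.000364). Agpat2, which acts before Lpin1 and whose loss causes lipodystrophy, rose by 1.48.

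The genes of uptake and activation were all higher in HGPS, and 4 of the 5 passed the stricter cut-offs against 2-mo WT. Fabp4, the fatty acid binding protein of adipocytes that endothelium and macrophages also make, had 367 to 1048 CPM in HGPS (median 843), 72.9 to 394 in 2-mo WT (median 178) and 104 to 370.2 in 24-mo WT (median 175). Only HGPS replicates 4 and 5 lay below the highest 2-mo WT mouse, and the log2 fold change was 1.97 (SE 0.38, adjusted p = 0.000374). Against 24-mo WT it was 1.92 (SE 0.38, adjusted p = 0.000355), and between the ages of WT 0.05 (SE 0.36, adjusted p = 0.953).

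Lpl, lipoprotein lipase, which frees fatty acids from circulating triglyceride, had 241 to 750.4 CPM in HGPS (median 511), 65.9 to 266 in 2-mo WT (median 139) and 52.6 to 188 in 24-mo WT (median 117). HGPS and 24-mo WT mice did not overlap (log2 fold change 1.94, SE 0.35, adjusted p = 0.00016), and against 2-mo WT the log2 fold change was 1.69 (adjusted p = 0.000686). Cd36, a fatty acid receptor of fat cells, capillaries and macrophages, had 165 to 489 CPM in HGPS (median 396), 42.5 to 207 in 2-mo WT (median 99.5) and 87.3 to 234 in 24-mo WT (median 125), a log2 fold change of 1.73 (SE 0.33, adjusted p = 0.000396). Acsl1, which couples fatty acids to CoA, had 322 to 715 CPM in HGPS (median 617), 217 to 351 in 2-mo WT (median 275) and 237 to 352 in 24-mo WT (median 303), a log2 fold change of 0.99 (SE 0.18, adjusted p = 0.000242). Slc2a4, which encodes the insulin-regulated glucose transporter GLUT4, rose by 0.91 (adjusted p = 0.0128).

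Among the transcription factors, Pparg and Cebpa, which drive adipocyte differentiation, were higher in HGPS and Srebf1 was not. Pparg had 20.0 to 52.2 CPM in HGPS (median 40.6), 4.54 to 25.1 in 2-mo WT (median 12.2) and 8.69 to 25.02 in 24-mo WT (median 16.0), a log2 fold change of 1.53 (SE 0.33, adjusted p = 0.0011). Cebpa rose by a log2 fold change of 1.24 (SE 0.32, adjusted p = 0.00391). Srebf1, which encodes SREBP1, an activator of Fasn and Scd1 transcription, had 81.7 to 131 CPM in HGPS, 93.2 to 138 in 2-mo WT and 67.6 to 211 in 24-mo WT, and its log2 fold change against 2-mo WT was -0.09 (SE 0.20, adjusted p = 0.752). SREBP1 acts after its protein is cleaved, which mRNA counts do not measure. Adrb3, the adrenergic receptor of fat, did not pass either (0.63, SE 0.47, adjusted p = 0.295), whereas Car3, an abundant carbonic anhydrase of adipocytes, rose by 1.63 (SE 0.40, adjusted p = 0.00267).

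Short promoter sites were read from RefSeq promoters (GRCm38.p6, 250 bases before to 50 after a start), which were matched for 27 of the 37 genes with 36 starts. The sites below are shown because Cebpa, which encodes a C/EBP protein that reads such words, is among the 37 genes, and Lep moved apart from the others that carry the word. Capitals mark the word, and each line is the gene's strand from 5′ to 3′.
Lep C/EBP word, chr6:29060166-29060173, plus strand: ccggacagTTGCGCAAgtggcact
Plin1 C/EBP word, chr7:79732827-79732834, minus strand: gagaggcaTTGCCCAAgattccct
Cidec C/EBP word, chr6:113434955-113434962, minus strand: gggctctaTTGCTCAAgggcccat
Pparg C/EBP word, chr6:115421851-115421858, plus strand: accaagtcTTGCCAAAgcagcaga
The C/EBP word TTGCNNAA, on either strand, was in 11.1% of the 36 promoters and in 10.8% of all 32851 promoters of this length. The word CCAAT, in 41.7% and 37.4%, and the E-box CACGTG, in 8.33% and 7.15%, were also near the share of all promoters. Among the 13946 promoters of tested genes, the C/EBP word was in 8.63%, CCAAT in 37.4% and the E-box in 9.47%. The C/EBP words shown overlap no other word searched in their lines, and a match is only a description of letters. Plin1 and Pparg each hold a further C/EBP word that is not shown, and that of Pparg has a CCAAT word in the bases beside it.

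Relative to Adipoq in the same mouse, most of the other 36 genes overlapped between groups. These ratios are a description and were not tested. Lep was at 0.037 to 0.186 of Adipoq in 24-mo WT, 0.00368 to 0.0262 in 2-mo WT and 0.00419 to 0.0132 in HGPS, so that 24-mo WT was apart from both. Cfd was at 2.40 to 3.48 times Adipoq in 24-mo WT and at 3.65 to 5.41 times in 2-mo WT, apart and in the other direction. Cebpa was at 0.253 to 0.323 of Adipoq in HGPS and at 0.359 to 0.578 in 2-mo WT. In the same comparison the ratios of Plin4, Srebf1 and Adrb3 were also lower in every HGPS mouse, and 0 genes were higher in every one. The CPM of Srebf1 and Adrb3 did not pass the test between these groups, that of Plin4 was lower, and Adipoq, the divisor, was higher in HGPS, so these ratios do not describe a level per adipocyte. Any gene with unchanged CPM has a lower ratio where Adipoq is higher, and the share of all genes on this scale was not computed. Against 24-mo WT, the ratios of 6 genes (Lep, Plin4, Scd2, Pparg, Cebpa and Srebf1) were lower in every HGPS mouse, and 0 were higher. Elovl6, with the largest log2 fold change, overlapped on this scale, at 0.272 to 0.981 of Adipoq in HGPS and 0.345 to 0.504 in 2-mo WT, where only HGPS replicate 6 was below the 2-mo WT median of 0.411.

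**Figure D5:**
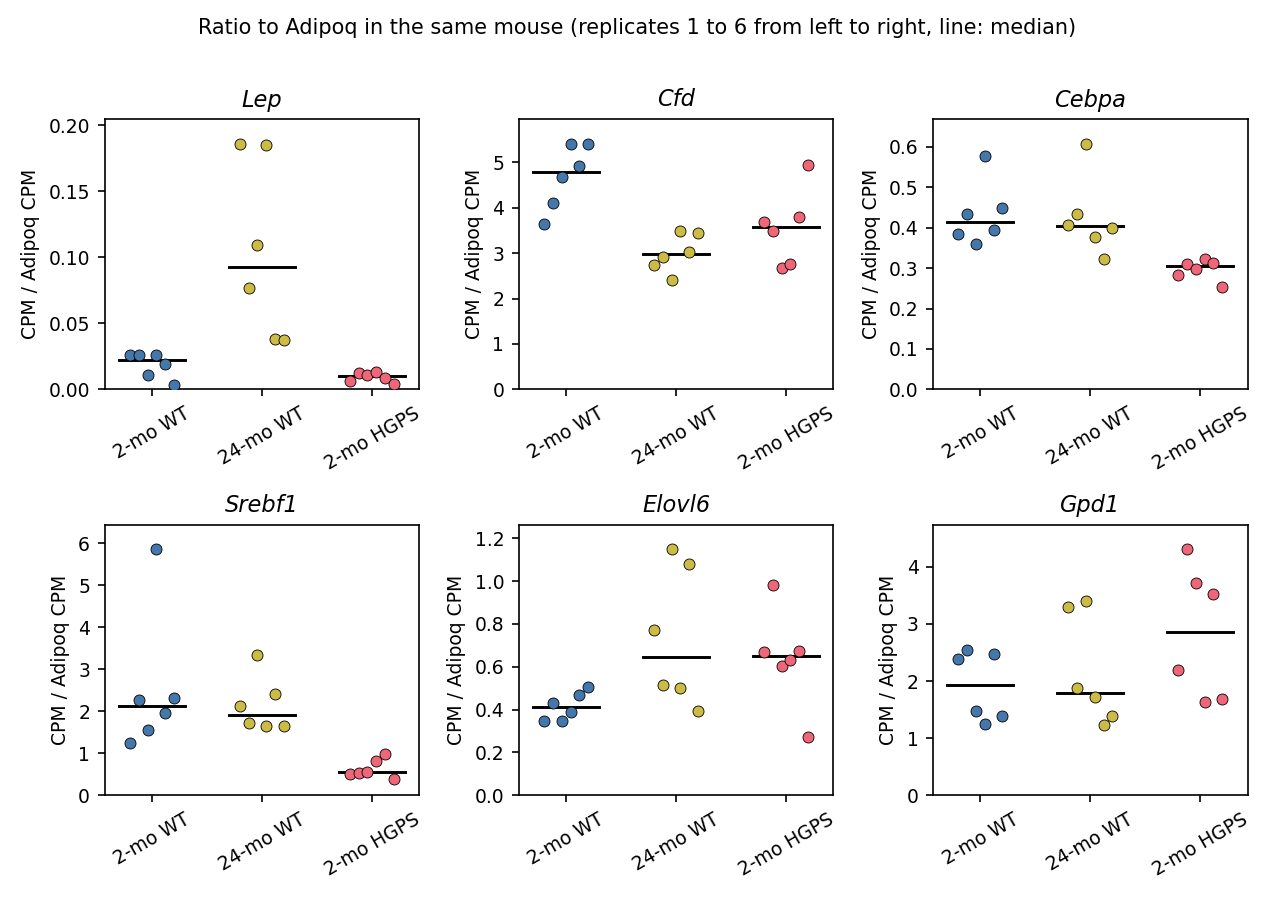
CPM of 6 genes divided by the CPM of Adipoq in the same mouse (points, linear axes from 0, 6 mice per group, replicates 1 to 6 from left to right, line at the median). Lep is high in 24-mo WT, Cfd is lower in 24-mo than in 2-mo WT, the ratios of Cebpa and Srebf1 are low in HGPS, where the divisor Adipoq is high, and Elovl6 and Gpd1 overlap.

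Other genes of the same pathway were taken from a list of 68, of which 67 were tested. Between HGPS and 2-mo WT, 37 of them were higher, 7 lower and 23 did not pass, with a median log2 fold change of 0.48. Of all tested genes, 22% were higher and 21.2% lower in this comparison. The largest rises were those of Elovl3, an elongase known from brown fat and skin glands (log2 fold change 3.25, adjusted p = 0.000961), Gpihbp1, which holds lipoprotein lipase on capillaries (1.88, adjusted p = 0.000844), Prkar2b, the protein kinase A subunit of fat (1.84, adjusted p = 0.00346), and Agt, angiotensinogen (1.71, adjusted p = 0.0175). The falls were smaller: Lepr, the leptin receptor, at -0.75 (adjusted p = 0.00465), Insr, the insulin receptor, at -0.44 (adjusted p = 0.000247), and Cavin1 and Cav1, which form caveolae and abound in smooth muscle too, at -0.39 (adjusted p = 0.000198) and -0.31 (adjusted p = 0.00147).

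By role, the listed partners of droplets and lipolysis had 8 higher and 1 lower of 11 tested, and those of triglyceride synthesis 8 higher and 0 lower of 11. Fatty acid synthesis had 7 higher and 1 lower of 11, uptake and activation 6 higher and 2 lower of 13, and adipokines and receptors 5 higher and 2 lower of 9. Among transcription factors and regulators, 3 were higher and 1 lower of 12. The 25% that were higher there is near the 22% of all tested genes between HGPS and 2-mo WT. Between 24-mo and 2-mo WT, 6.29% of all tested genes were higher and 5.38% lower. Of the 67, 2 were higher, Fads3 (0.36, adjusted p = 0.00335) and Ebf1, a factor of adipocyte and lymphoid development (0.24, adjusted p = 0.0075), and 4 were lower. These were the desaturase Fads2 (-0.62, adjusted p = 0.000208), Irs1 (-0.51, adjusted p = 0.00795), Cav1 (-0.46, adjusted p = 0.00019) and Cav2 (-0.37, adjusted p = 0.013). Between HGPS and 24-mo WT, 36 were higher and 4 lower, against 23.8% and 23.6% of all tested genes. Elovl3 was at 4.20 (adjusted p = 0.000155) and Lepr at -1.26 (adjusted p = 3.8e-05 by edgeR), so that leptin and its receptor were both lower in HGPS than in 24-mo WT.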

How the data were processed

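Stranded total RNA libraries were sequenced from both ends. With salmon, the authors estimated reads per transcript (GENCODE M23, GRCm38.p6), added them up by gene using tximport, and deposited the estimated counts as unnormalized whole numbers. The submitters' processing notes also name Bowtie 0.12.2, with no role given. Gene symbols and coordinates came from GENCODE M21 on the same assembly (99.7% of identifiers matched).

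Genes with at least 10 estimated counts in at least 6 mice were normalized by TMM and tested with edgeR 4.0.16 in R 4.3.3 (glmQLFit and glmQLFTest), all 3 groups in 1 fit with 15 residual degrees of freedom, with Benjamini-Hochberg adjustment over 15210 genes. CPM are counts scaled to a common library size with TMM, and SE was taken as log2 fold change over the root of the F statistic. All mice were separate animals, and no 2 libraries of a group agreed within sampling noise (chi-square per degree of freedom at least 7.56 over 45 pairs). The fits were tested on simulated counts. Alternatives were DESeq2 1.42.0, limma 3.58.1 (voom), other normalizations and filters, the 2 groups alone, a replicate block, each mouse left out, and marker scores as covariates.

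The 37 genes, the other lists and the tests were chosen with earlier results of these data known. Genes named in full are those past the study's cut-offs, the 6 largest changes per comparison, and Adipoq, Plin1, Pparg and Lep, and of other lists up to 4 rises and 4 falls per comparison and defining markers. Mgll, Fasn, Scd2, Srebf1 and Elovl5 were added after their values were seen. Matches of 31-base words used M21 transcripts. Some of the promoter words searched are not reported here.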

Additional observations from a re-analysis of the deposited data

Results flagged for a closer look

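Among 111 sets of 6 mice (37 genes in 3 groups), 3 had an extreme mouse whose gap to the next, divided by the range of the group, exceeded Dixon's 95% critical value for 6 samples, where chance gives about 1 in 20. Plin4 in HGPS was one, with replicate 6 at 764 CPM and the next mouse at 570.1 (ratio 0.758). This mouse also had the highest levels of Adipoq, Cfd and Cidec in its group. The others were Mgll in 2-mo WT, with replicate 1 at 179 CPM and the next at 154 (ratio 0.671), and Mgll in 24-mo WT, with replicate 1 at 209 CPM and the next at 170.0 (ratio 0.687). In both WT groups that replicate was the highest for most of the 37 genes.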

How the results depend on the processing

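Of the values of single genes in the 29 alternatives, 2936 kept their direction and their side of the threshold, 77 changed sign without passing in either fit, 153 lost and 24 gained the call, and 29 changed sign where a fit had called them. Each of these 29 came with a marker score as covariate, and most brown fat and adipocyte markers were themselves higher in HGPS. The cause was not tested. For HGPS against 2-mo WT these log2 fold changes were, with the brown fat score, -0.0024 for Plin1, -0.16 for Dgat2 and -0.10 for Slc2a4. With the adipocyte score they were -0.013 for Cfd and -0.87 for Adrb3, and with brown fat and skeletal muscle scores -0.031 for Cfd, -0.14 for Plin1, -0.26 for Dgat2, -0.16 for Slc2a4 and -0.0086 for Cebpa. For HGPS against 24-mo WT they were, with the brown fat score, -0.38 for Plin1, -0.067 for Plin5, -0.080 for Acacb, -0.04 for Scd1, -0.30 for Thrsp, -0.031 for Gpd1, -0.33 for Dgat2, -0.015 for Cd36, -0.0555 for Slc2a4, -0.27 for Pparg, -0.0036 for Cebpa and -1.50 for Adrb3. With the adipocyte score they were -0.12 for Plin1 and -1.15 for Adrb3, and with brown fat and skeletal muscle scores -0.24 for Plin1, -0.0545 for Acacb, -0.25 for Thrsp, -0.19 for Dgat2 and -0.20 for Pparg.

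At an adjusted p under 0.05, the count for HGPS against 2-mo WT (33) was 2 with the brown fat score, 16 with the adipocyte score and 2 with brown fat and skeletal muscle scores, and 33 in each fit without 1 mouse. The median log2 fold change was 0.24, 0.40 and 0.19 with these covariates and 1.37 to 1.72 without 1 mouse. For HGPS against 24-mo WT (33), it was 6, 14 and 6, with medians of 0.042, 0.25 and 0.12, and 29 to 34 without 1 mouse. For 24-mo against 2-mo WT (2), it was 1 with upper quartile normalization and with no filter, 6 with the brown fat score, 7 with the adipocyte score and 1 to 3 without 1 mouse.

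At the study's cut-offs, the count for HGPS against 2-mo WT (10) was 25 with DESeq2, 26 with limma voom, 17 with no filter, 0 with the brown fat score, 1 with the adipocyte score, 0 with both other scores and 3 to 23 without 1 mouse. For HGPS against 24-mo WT (5), it was 11 with DESeq2, 17 with limma voom, 9 with no filter, 1 with the brown fat score, 1 with brown fat and skeletal muscle scores and 2 to 11 without 1 mouse. For 24-mo against 2-mo WT (0), it was 1 with DESeq2, 1 with the brown fat score and 1 with the adipocyte score, in each case Lep.

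Replicate numbers do not pair the mice, since deviations of same-numbered mice correlated between -0.162 and 0.172. With the number as a replicate block, 33, 2 and 33 genes passed, and no call of the 37 genes changed. Lep rests on few counts, with an 18.96-fold range among 2-mo WT mice, and the next widest range in a group was that of Plin5, at 12.45-fold.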
